A study of Drosophila melanogaster with 2 samples.

Results

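Aminoacyl-tRNA synthetases are the enzymes that join each amino acid to its transfer RNA (tRNA), and they are encoded in Drosophila melanogaster by nuclear genes that the annotation names by the amino acid and the letters RS. All protein-coding genes with such a symbol were taken, with or without the ending -m or the subunit prefixes alpha- and beta-, together with GluProRS. The rule found 35 genes among 13945 protein-coding genes on 6 chromosome arms, and no measured value entered it. Of these, 20 carry no ending and are called cytoplasmic forms here, and 15 carry the ending -m and are called mitochondrial forms. Each was examined for peaks of eGFP-tagged disco-r, a zinc-finger protein, mapped by chromatin immunoprecipitation with sequencing (ChIP-seq).

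The embryos came from a transgenic line with disco-r fused to eGFP and the chromatin was precipitated through the tag with an antibody against GFP. They were whole embryos of both sexes pooled, 0 to 24 h old, so neither cell types nor stages can be separated. There was 1 group of 2 samples, biological replicates 2 and 3, both carrying the transgene, and no input or untagged library was analysed here. A note in the labels names disco, the paralog of disco-r, as the gene fused to GFP at the C-terminus, while the other labels name disco-r. In flies disco and disco-r are known for patterning segments of the embryonic head and for leg development.

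Every cell needs synthetases to make protein, and the enzymes fall into classes I and II, which differ in the fold of the catalytic domain. Mitochondria translate their own messages and import nuclear-encoded synthetases to do so. In humans some genes, among them those for glycine and lysine, make an enzyme for both compartments, so the absence of the ending -m does not place an enzyme in the cytoplasm alone. In animals several cytoplasmic synthetases sit together in a multi-synthetase complex held by scaffold proteins, and GluProRS joins the glutamate and proline activities in a single protein.

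The deposited lists on dm6 held 30000 candidate regions for each replicate, 29347 candidates from the replicates pooled, and 2334 peaks that passed a threshold on the irreproducible discovery rate (IDR), which scores whether a region ranks alike in both replicates. The IDR list was the same as the strongest 2334 of the pooled candidates, which amounts to keeping every pooled region with a signal of 72.5 or more. Signal is the authors' own value for each region, has no stated scale, and is compared here within a list only. The number of reads is unknown. A gene is counted as having a peak when an IDR summit falls between 2 kb before and 2 kb after its body. Such a gene is not thereby a target, and neighbouring genes can share a summit.

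Peaks lay near 13 of the 35 synthetase genes, or 37.1% (95% Wilson interval 23.2 to 53.7), against 22.2% of all protein-coding genes. Among protein-coding genes with a body of up to 10 kb the share was 19.2%. The synthetase genes had a median body length of 2727 bp, against 2166 bp for all genes, and only MetRS-m, at 10949 bp, exceeded 10 kb. The cytoplasmic forms had a peak in 10 of 20 cases (50%, 29.9 to 70.1), and these were AlaRS, SerRS, IleRS, alpha-PheRS, AsnRS, GluProRS, GlnRS, AspRS, GlyRS and ThrRS. The mitochondrial forms had one in 3 of 15 cases (20%, 7.05 to 45.2), and these were CysRS-m, LeuRS-m and SerRS-m. The share of cytoplasmic forms lay above the share of all genes and its interval did not reach it, while the interval of the mitochondrial forms included it. Divergent protein-coding genes, which start within 1000 bp of another gene's start on the opposite strand and to which 17 of the 20 cytoplasmic forms belong, had a peak in 32.6% of cases. The intervals of the cytoplasmic forms and of all 35 synthetase genes included that share. The intervals of the cytoplasmic and mitochondrial forms overlapped, and the difference between them was not tested. Intervals cover counting error only, and neighbouring genes are not independent.

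**Figure D1:**
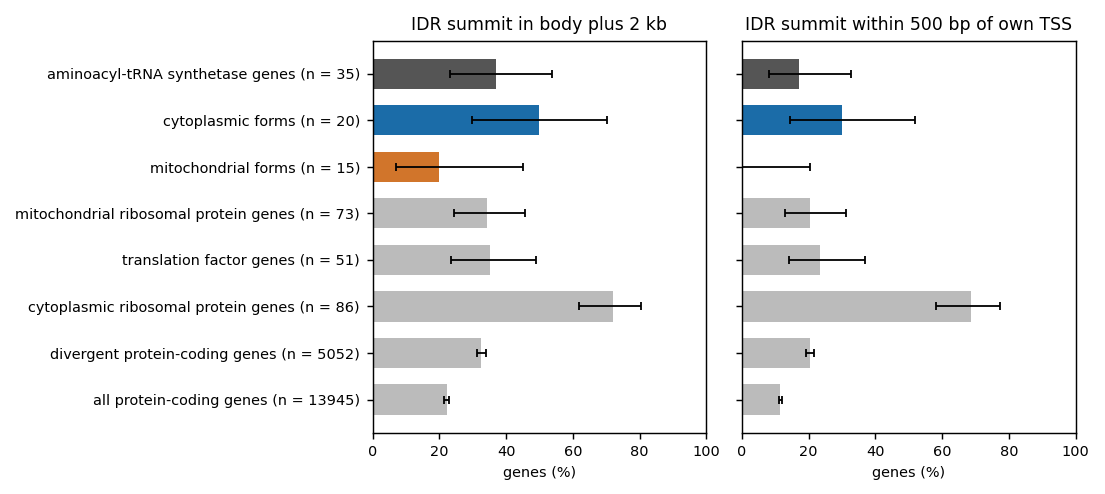
Share of genes with an IDR summit in the body plus 2 kb (left) and within 500 bp of an own transcription start site (right), in percent, with 95% Wilson intervals as error bars. The 20 cytoplasmic forms stood at 50% and 30.0%, the 15 mitochondrial forms at 20% and 0%, and all 13945 protein-coding genes at 22.2% and 11.5%.

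The replicates taken alone gave similar counts. Among the strongest 2334 candidates of replicate 2 alone, 11 synthetase genes had a summit (9 cytoplasmic and 2 mitochondrial forms), against 21.3% of all genes. For replicate 3 the count was 13 (10 cytoplasmic and 3 mitochondrial forms), against 22.2% of all genes. In 9 genes, 7 cytoplasmic and 2 mitochondrial, both replicates placed a summit among their strongest, against 16.9% of all genes. The IDR peaks derive from these same replicates, and both replicates from the same control file, so their likeness is no separate measure.

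Fewer of the genes had the peak at their own start. A summit within 500 bp of an own transcription start site (TSS) was found for 6 of the 35 synthetase genes (17.1%, 8.1 to 32.7), against 11.5% of all genes, and the interval included that background. All 6 were cytoplasmic forms (6 of 20, 30.0%, 14.5 to 51.9). None of the 15 mitochondrial forms had one, with an upper limit of 20.4%. The 6 genes were SerRS, IleRS, AsnRS, GluProRS, AspRS and ThrRS. Replicate 2's strongest candidates gave the same 6 genes, against 11.1% of all genes. Replicate 3's gave 6 as well, against 11.6% of all genes, but with ArgRS and beta-PheRS in place of AspRS and ThrRS.

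**Figure D2:**
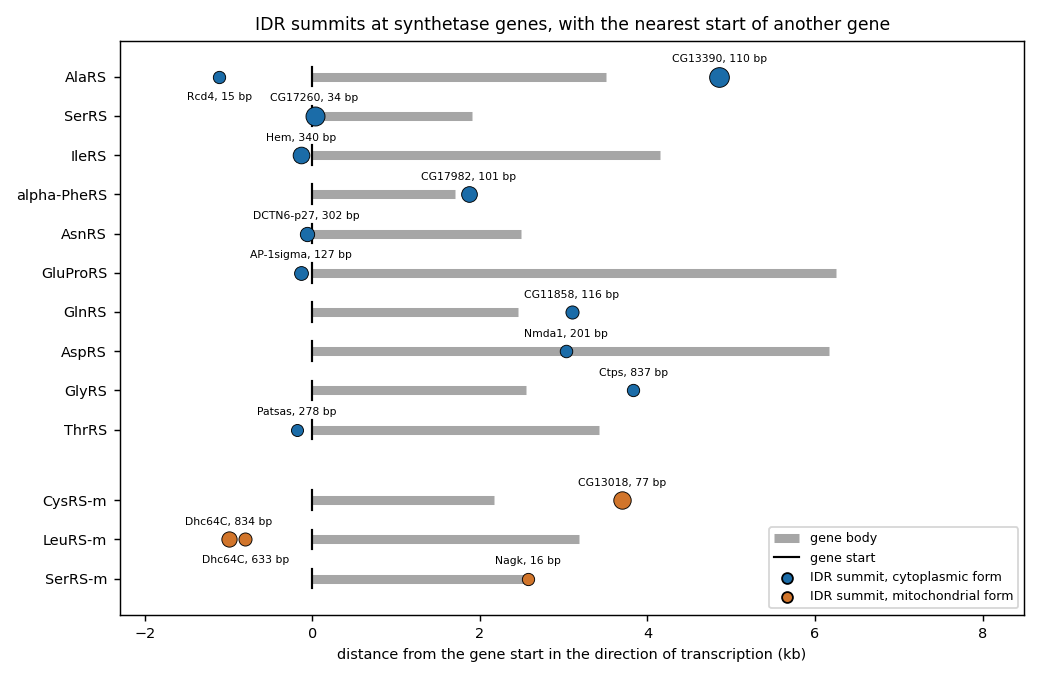
Position of each IDR summit relative to the start of the synthetase gene, in kb along the direction of transcription, with gene bodies as grey bars. The area of a circle is proportional to pooled signal, 74.1 to 198, and the label above or below it names the nearest start of another protein-coding gene and its distance. Circles near position 0 belong to 5 genes, AspRS has its summit inside the body, and the others lie beyond the gene's end or well before its start.

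SerRS, which charges serine tRNA, had the strongest of the promoter peaks. The peak at chr2L:3037177-3037576 had a signal of 185, rank 356 of 2334, with the summit 26 bp downstream of the start in the 5′ UTR. Its signal was 81.6 in replicate 2 and 105 in replicate 3, at ranks 511 and 278 of 30000. CG17260 starts 34 bp from the same summit on the opposite strand, so the peak belonged to a start shared by both genes.

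IleRS, which charges isoleucine tRNA, had its peak at chr3L:22288335-22288734 with a signal of 142, rank 641. The summit lay 130 bp before its own start and 340 bp from that of Hem, a component of the WAVE complex that governs actin. The replicates placed it at ranks 904 and 544, with signals of 63.3 in replicate 2 and 75.8 in replicate 3. AsnRS, the asparagine enzyme, had a signal of 105 at chr2L:19131821-19132220, rank 1167, with the summit 67 bp before its start and 302 bp from DCTN6-p27, a dynactin subunit. That region had a signal of 59.8 (rank 1006) in replicate 2 and 42.1 (rank 1744) in replicate 3. GluProRS had a signal of 97.6 at chr3R:23958324-23958723, rank 1341. Its summit lay 133 bp before its own start and 127 bp from the start of AP-1sigma, a clathrin adaptor subunit, so here the neighbour was nearer by 6 bp. The replicates gave 42.3 (rank 2106) in replicate 2 and 51.4 (rank 1182) in replicate 3. ThrRS, the threonine enzyme, had the weakest of these peaks, with a signal of 74.1 at chr2L:12103363-12103762, rank 2237, and a summit 188 bp before its start and 278 bp from Patsas. Its signal was 45.9 (rank 1735) in replicate 2 and 25.1 (rank 4611) in replicate 3, so only replicate 2 placed it among its strongest 2334.

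The sequences around these promoter summits are shown so that the compared letters can be read in place. Each runs 5′ to 3′ on the strand of the synthetase gene, covers 100 bases either side of the summit where these are clear of annotated exons, and comes from the Release 6 genome (dm6). Base 101 is the summit in each. Capitals mark matches to the searched motifs, named with their letters further on. SerRS is not printed because its summit lies in an annotated exon. The windows are chr3L:22288435-22288635 (plus strand) for IleRS, chr2L:19131955-19132121 (minus strand) for AsnRS, chr3R:23958424-23958624 (minus strand) for GluProRS and chr2L:12103463-12103663 (plus strand) for ThrRS.
IleRS: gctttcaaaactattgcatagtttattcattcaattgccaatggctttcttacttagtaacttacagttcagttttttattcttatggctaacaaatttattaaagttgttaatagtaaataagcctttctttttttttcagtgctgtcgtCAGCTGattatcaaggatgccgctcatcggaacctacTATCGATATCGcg
AsnRS: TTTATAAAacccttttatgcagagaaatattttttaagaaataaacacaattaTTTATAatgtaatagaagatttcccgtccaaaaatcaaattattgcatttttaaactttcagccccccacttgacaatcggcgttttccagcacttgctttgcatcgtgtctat
GluProRS: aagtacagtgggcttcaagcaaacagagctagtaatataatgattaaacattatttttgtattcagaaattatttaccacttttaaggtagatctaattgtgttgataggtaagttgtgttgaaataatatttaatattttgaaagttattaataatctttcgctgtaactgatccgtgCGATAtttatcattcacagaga
ThrRS: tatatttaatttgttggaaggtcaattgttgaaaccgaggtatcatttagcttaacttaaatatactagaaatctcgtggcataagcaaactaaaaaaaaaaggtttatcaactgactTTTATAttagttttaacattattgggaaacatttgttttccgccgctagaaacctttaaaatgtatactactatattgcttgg
The GC content of these windows was 33.3% at IleRS, 31.1% at AsnRS, 27.9% at GluProRS and 28.9% at ThrRS. The IleRS window holds an E-box and, close to its 3′ end, a DREF site with BEAF-32 letters in and beside it. The AsnRS and ThrRS windows hold TATA box letters, and the GluProRS window a BEAF-32 site.

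All 6 promoter peaks of synthetase genes also lay within 500 bp of another gene's TSS. Among all 1215 IDR peaks within 500 bp of a protein-coding TSS, 453 (37.3%) lay that close to the starts of more than 1 gene. A divergent neighbour, meaning another protein-coding start on the opposite strand within 1000 bp upstream, was found for 24 of the 35 synthetase genes (68.6%). It was found for 17 of 20 cytoplasmic forms (85.0%), 7 of 15 mitochondrial forms (46.7%) and 36.2% of all genes. The 24 divergent synthetase genes had a peak in 11 cases (45.8%, 27.9 to 64.9) and one at the own promoter in 6 (25%, 12.0 to 44.9). All 5052 divergent protein-coding genes had a peak in 32.6% of cases and a promoter peak in 20.3%, and the intervals include both shares. The interval of the cytoplasmic forms' promoter share, 14.5 to 51.9, also included 20.3%. The 11 synthetase genes without a divergent neighbour had a peak in 2 cases and a promoter peak in none, against 16.3% and 6.47% of all genes without one. The part of divergent starts in the counts of cytoplasmic forms was not tested beyond these values.

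AspRS, the aspartate enzyme, has 3 annotated starts. Its peak at chr2R:12879829-12880228 had a signal of 79.9, rank 1944, and lay in an intron, 255 bp before an internal start of AspRS and 201 bp from Nmda1. With the gene's outermost start alone it would not count as a promoter peak. Its region had a signal of 46.4 (rank 1697) in replicate 2 and 35.5 (rank 2371) in replicate 3, where it fell just short of the strongest 2334.

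The remaining peaks lay nearer to other genes than to the synthetase gene. AlaRS, which charges alanine tRNA, had the strongest signal of all 35 genes, 198 at chr2L:8376814-8376992, rank 301. That summit lay 4681 bp downstream of the nearest AlaRS start, beyond the gene's end, and 110 bp from the start of CG13390. In replicate 2 the signal was 91.9 (rank 393) and in replicate 3 it was 108 (rank 262), so both replicates placed it high. The second AlaRS peak, at chr2L:8382676-8383075, had a signal of 77.6 and lay 1112 bp before its start but 15 bp from the start of Rcd4. It had 39.3 (rank 2433) in replicate 2 and 33.3 (rank 2658) in replicate 3, outside the strongest 2334 of each. CysRS-m, the mitochondrial cysteine enzyme, had the strongest signal of its form, 155 at chr2R:14157512-14157670, rank 537. Its summit lay 3697 bp downstream of its own start and 77 bp from the start of CG13018. Its signal was 51.3 in replicate 2 and 99.7 in replicate 3, at ranks 1382 and 300.

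alpha-PheRS encodes the catalytic subunit of the cytoplasmic phenylalanine enzyme. Its peak, with a signal of 126 at chrX:8143534-8143933, lay past the gene's end and 101 bp from the start of CG17982. It had 68.0 (rank 768) in replicate 2 and 58.6 (rank 924) in replicate 3. LeuRS-m, the mitochondrial leucine enzyme, had overlapping peaks with signals of 119 at chr3L:4824653-4825052 and 87.4 at chr3L:4824854-4825253. Their summits stood 1000 and 799 bp before its start, and 834 and 633 bp from the start of Dhc64C, the heavy chain of cytoplasmic dynein. Both matched the same candidate in each replicate, with 61.6 (rank 956) in replicate 2 and 56.0 (rank 997) in replicate 3. GlnRS, the glutamine enzyme, had a signal of 88.0 at chr3R:25262425-25262824, with the summit 3096 bp from its start and 116 bp from that of CG11858. It had 52.3 (rank 1325) in replicate 2 and 37.4 (rank 2139) in replicate 3. The GlyRS peak, for the glycine enzyme, had a signal of 77.7 at chr3L:15098772-15099171 and lay 837 bp from the start of Ctps, the CTP synthase gene. Its signal was 27.9 (rank 5132) in replicate 2 and 40.9 (rank 1832) in replicate 3, so only replicate 3 placed it among its strongest 2334. SerRS-m, the mitochondrial serine enzyme, had a signal of 77.2 at chr3R:15343040-15343439, 16 bp from the start of Nagk, an N-acetylglucosamine kinase gene. It likewise stood among the strongest of replicate 3 alone, with 33.2 (rank 3565) in replicate 2 and 46.2 (rank 1463) in replicate 3.

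These 15 peaks at 13 genes had a median signal of 97.6, within a range of 74.1 to 198. The IDR list had a median of 105 and ran to 1206, and 7 of the 15 peaks lay above that median. In 4 of the 15 the TSS of the synthetase gene itself was the nearest protein-coding TSS (SerRS, IleRS, AsnRS and ThrRS), and in 11 that of another gene was. Thus 4 of the 13 synthetase genes with a peak (30.8%) were the nearest gene to one, against 1680 of the 3096 protein-coding genes with a peak (54.3%). No interval was taken for this small share. Of the 13 genes 11 are divergent, and the share was not compared with that of divergent genes. By the nearest TSS alone, 4 of 35 synthetase genes were assigned a peak, a share slightly below the 13.3% of all genes. All 4 were cytoplasmic forms (4 of 20), whose share lay above 13.3%, and no interval was taken. Of the 15 peaks, 6 lay within 500 bp of the synthetase gene's own TSS, 6 within 500 bp of another gene's TSS only, and 3 (the LeuRS-m pair and that of GlyRS) within 500 bp of neither. All 15 had a candidate in both replicates, and 10 were among the strongest 2334 of both.

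The threshold ran between neighbouring values. ThrRS, at 74.1, was the weakest synthetase gene inside it. Just outside stood ArgRS, the arginine enzyme, with a signal of 71.6 at pooled rank 2400 and a summit 186 bp before its start and 145 bp from CG8578. The region ranked 4228 in replicate 2 and 2126 in replicate 3. Next was beta-PheRS, the other subunit of the phenylalanine enzyme, with 67.9 at rank 2660 and a summit 17 bp before its start. Its strongest candidate had a signal of 15.2 in replicate 2, at rank 18560, and one of 41.4 in replicate 3, at rank 1783, so its ranks in the replicates lay further apart than those of ThrRS or ArgRS.

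The strongest pooled candidates of the 22 genes without a peak reached 71.6 and had a median of 34.4. Among cytoplasmic forms, HisRS (histidine) had 56.8, ValRS (valine) 50.6, TyrRS (tyrosine) 41.7, MetRS (methionine) 40.7, TrpRS (tryptophan) 34.4, CysRS (cysteine) 33.6, LysRS (lysine) 30.2 and LeuRS (leucine) 23.5. Among mitochondrial forms, AsnRS-m had 55.7, PheRS-m 45.6, ArgRS-m 45.6, GluRS-m 41.7, IleRS-m 32.9, TyrRS-m 27.5, TrpRS-m 27.4, AlaRS-m 26.3, MetRS-m 23.1, AspRS-m 22 and ProRS-m 21.2. ValRS-m had no pooled candidate in its window, and a signal of 12.0 in replicate 2 alone. The neighbours TyrRS and GluRS-m shared the same candidate. Replicate 3 listed no candidate near TrpRS, IleRS-m, ProRS-m or ValRS-m, and replicate 2 listed none near LeuRS. The pooled list holds background regions as well as peaks, so a candidate far below the threshold is not a binding call.

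**Figure D3:**
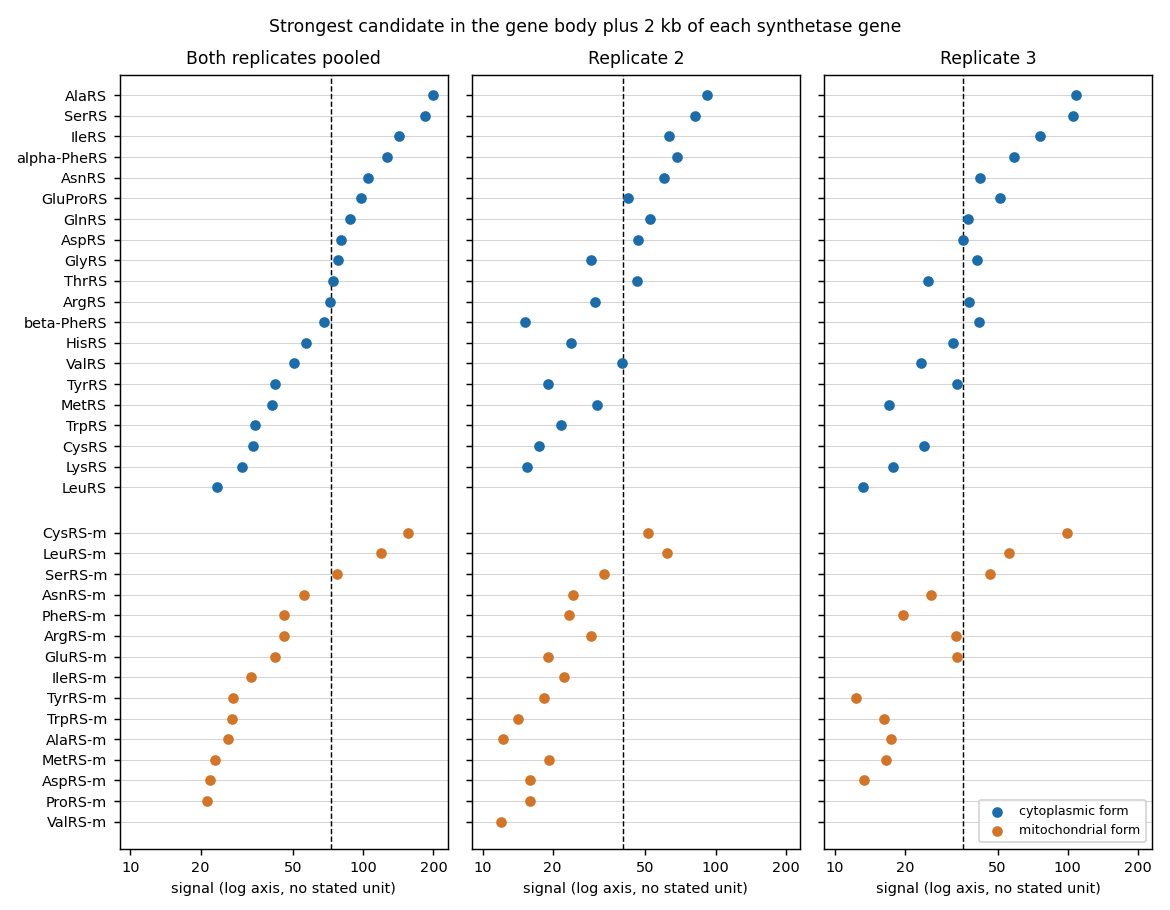
Signal of the strongest candidate in the body plus 2 kb of each synthetase gene, on a log axis with no stated unit, in the pooled list and in each replicate. Dashed lines mark the weakest IDR peak (72.5) and the weakest of the strongest 2334 candidates of replicate 2 (40.2) and replicate 3 (35.7), and a gene without a point had no candidate. Among the pooled candidates 10 cytoplasmic and 3 mitochondrial forms stood right of the line.

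Taking each gene's strongest candidate whatever its rank, the cytoplasmic forms had a median pooled signal of 72.9 (23.5 to 198, 20 genes) and the mitochondrial forms one of 37.3 (21.2 to 155, 14 genes). All genes with a candidate had a median of 43.8, and divergent genes with a candidate one of 55.0. The medians were 39.8 for 19 cytoplasmic forms and 19.3 for 15 mitochondrial forms in replicate 2, and 37.4 for 19 and 22.8 for 12 in replicate 3. The ranges of both forms overlapped in each list. Near own starts, a candidate of any strength lay within 500 bp for 17 of 20 cytoplasmic forms (85.0%), 6 of 15 mitochondrial forms (40.0%) and 50.4% of all genes. The share was 68.4% for divergent genes and 72.5% for translation factor genes. It was 75.3% for mitochondrial and 95.3% for cytoplasmic ribosomal protein genes. No interval was taken for these shares and their differences were not tested.

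For 12 amino acids there is 1 cytoplasmic and 1 mitochondrial gene, which allows the forms to be set side by side. The cytoplasmic gene had the higher strongest signal for 9 of the 11 amino acids with both genes in the pooled list. The widest gap was at alanine, with 198 for AlaRS and 26.3 for AlaRS-m. The mitochondrial gene was higher for cysteine, with 33.6 for CysRS and 155 for CysRS-m, and for leucine, with 23.5 for LeuRS and 119 for LeuRS-m. In replicate 2 the cytoplasmic gene was higher for 10 of 11 listed pairs, and in replicate 3 for 7 of 9. Some of these gaps were small. Tyrosine in replicate 2 had 19.1 for TyrRS and 18.4 for TyrRS-m, and methionine in replicate 3 had 17.2 for MetRS and 16.6 for MetRS-m. Those TyrRS and MetRS summits also lay nearer to other genes. At cysteine the order was the same in both replicates, with 17.4 for CysRS and 51.3 for CysRS-m in replicate 2, and 24.3 for CysRS and 99.7 for CysRS-m in replicate 3. The high values of AlaRS, CysRS-m and LeuRS-m came from summits nearer to other genes.

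By enzyme class, 8 of 16 class II genes had a peak (50%, 28.0 to 72.0) and 4 of 18 class I genes did (22.2%, 9.0 to 45.2), against 22.2% of all genes and 32.6% of divergent genes. The interval of class II excluded the share of all genes but not that of divergent genes. The class II genes with a peak were all cytoplasmic forms except SerRS-m, while those of class I were IleRS, GlnRS, CysRS-m and LeuRS-m. The classes were not compared within each form. GluProRS, which joins an enzyme of each class, was kept apart. Promoter peaks lay at 4 class II genes (SerRS, AsnRS, AspRS and ThrRS, 25%, 10.2 to 49.5) and at 1 class I gene (IleRS, 5.56%, 0.988 to 25.8), and both intervals included the 11.5% of all genes. The intervals of the classes overlapped and the difference was not tested. In replicate 2 the counts were 6 of 16 class II genes and 4 of 18 class I genes, against 21.3% of all genes, and in replicate 3 they were 7 of 16 and 5 of 18, against 22.2%.

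The 8 genes of the multi-synthetase complex had a peak in 4 cases (GluProRS, IleRS, GlnRS and AspRS, 50%, 21.5 to 78.5), and so did 6 of the 12 other cytoplasmic forms (50%, 25.4 to 74.6), against 22.2% of all genes. All 8 complex genes are divergent, and their interval included the shares of all genes and of divergent genes (32.6%). LeuRS, MetRS, LysRS and ArgRS were the complex genes without a peak. The scaffold genes AIMP1, AIMP2 and AIMP3 had none, with strongest pooled signals of 41.1, 21.2 and 25.5. The upper limit for these 3 genes was 56.1%, so their interval included the 22.2% of all genes. GatA, GatB and GatC form the amidotransferase that completes glutamine tRNA in mitochondria, and Slimp is a paralog of the mitochondrial serine enzyme. None of these 4 had a peak, with an upper limit of 49.0%, so their interval included the 22.2% of all genes. GatA, with 71.9, stood just under the threshold. Among the strongest 2334 of replicate 3 there was 1 of the 4, against 22.2% of all genes.

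Genes that act on tRNA before or after charging had a peak in 2 of 7 cases (28.6%, 8.22 to 64.1), close to the 22.2% of all genes. La, whose protein binds the ends of new RNA polymerase III transcripts, had a signal of 112 with the summit 77 bp from its own start. Rpp30, a subunit of RNase P, had one with a signal of 82.0 that lay 105 bp from the start of kis, a chromatin remodeller. RNaseZ, Nsun2 and Mt2 had only weaker candidates, of 36.9, 30.9 and 45.1, and neither Elp2 nor Elp3 had any.

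The response to missing amino acids starts when uncharged tRNA activates the kinase Gcn2, which phosphorylates eIF2alpha and raises translation of crc, the fly ATF4. In 3 of the 7 genes listed for this response there was a peak (42.9%, 15.8 to 75.0), an interval that includes the 22.2% of all genes. Their median body was 6191 bp, against 2166 bp for all genes. Thor, the 4E-BP translation inhibitor, had 2, the strongest with a signal of 116 at 12 bp from its start. Sesn, the sestrin gene, had 3, the strongest with a signal of 404 at 233 bp from its own start and equally far from CG46429. The peak at PPP1R15, which encodes a subunit of the eIF2alpha phosphatase, had a signal of 413 but lay 1280 bp from its start and 266 bp from that of Sox14, a transcription factor gene. Gcn2, PEK, crc and eIF2alpha had no peak, with strongest pooled signals of 42.7, 33.9, 35.4 and 45.7.

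Other genes of the translation apparatus give a scale for these counts. Cytoplasmic synthetase genes had a peak in 50% of cases and a promoter peak in 30.0%, which lay below the shares of cytoplasmic ribosomal protein genes, with 62 of 86 (72.1%, 61.8 to 80.5) and 59 of 86 (68.6%). For promoter peaks the intervals did not overlap, with 14.5 to 51.9 for cytoplasmic synthetase genes and 58.2 to 77.4 for cytoplasmic ribosomal protein genes. For peaks in the body plus 2 kb they did overlap, with 29.9 to 70.1 and 61.8 to 80.5. Mitochondrial synthetase genes, at 20%, had an interval (7.05 to 45.2) that overlapped that of mitochondrial ribosomal protein genes, with 25 of 73 (34.2%, 24.4 to 45.7). Translation factor genes had a peak in 18 of 51 cases (35.3%, 23.6 to 49). Promoter peaks lay at 23.5% of translation factor genes and 20.5% of mitochondrial ribosomal protein genes. None of the differences between these groups was tested. Within 2 kb of the 35 synthetase genes the annotation has none of its 290 tRNA genes.

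Promoters of synthetase genes were then searched, from 250 bp before to 50 bp after the gene start, for 8 motifs on both strands. The E-box letters CAGCTG stood in 17 of 35 promoters (48.6%), 10 of cytoplasmic and 7 of mitochondrial forms, against 17.7% of all promoters. Mitochondrial ribosomal protein genes had a like share, 54.8%, while cytoplasmic ribosomal protein genes had 8.14% and translation factor genes 7.84%. A divergent neighbour went with a higher share among all genes, 22% against 15.2% without one. Among synthetase genes the letters stood in 13 of 24 divergent promoters and in 4 of 11 others. They stood in 5 of the 13 promoters of synthetase genes with a peak and in 12 of the 22 without. Within 100 bp of summits they stood in 2 of the 15 peaks at synthetase genes (13.3%) and in 10.2% of all IDR peaks.

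Some of these E-box sites are shown with their surroundings, chosen after the shares had been seen and limited to sites clear of annotated exons. Each is printed 5′ to 3′ on the gene's strand from the Release 6 genome (dm6), with the site in capitals. The ArgRS site (chrX:15844172-15844207, minus strand) lies 42 bp before the start, that of TrpRS-m (chr3L:17849685-17849720, plus strand) 22 bp and that of TyrRS (chr3L:16419315-16419350, minus strand) 28 bp.
ArgRS: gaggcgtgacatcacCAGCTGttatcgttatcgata
TrpRS-m: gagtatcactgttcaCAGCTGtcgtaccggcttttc
TyrRS: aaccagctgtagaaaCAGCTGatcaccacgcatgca
The site of IleRS, 74 bp before its start, is the one in capitals in the IleRS window printed above. TyrRS has a second site 40 bp before its start, which appears in lower case near the 5′ end of its line. None of these genes other than IleRS had an IDR peak.

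The other motifs differed less in share between synthetase promoters and all promoters. CGATA, bound by the insulator protein BEAF-32, stood in 23 of 35 (65.7%) against 47.4% of all promoters. TATCGATA, the site of DREF, a factor of replication and growth genes, holds CGATA within it and stood in 5 (14.3%) against 9.36%. TATAAA, the letters of the TATA box, stood in 19 (54.3%) against 45.8%. They were counted anywhere in the window and on either strand, so a match does not mark a working TATA box. The core promoter element Motif 1, GGTCACAC, stood in 5 (14.3%) against 7.7%, GAGAG, read by GAGA factor, in 6 (17.1%) against 29.7%, and the E-box CACGTG in 2 (5.71%) against 4.2%. The composite element TGATGNAA, at which mammalian ATF4 induces synthetase genes when amino acids are short, stood in 2 promoters (5.71%), those of CysRS and beta-PheRS, against 4.07% of all promoters.

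Around the summits the letters TATAAA stood in 11 of the 15 peaks at synthetase genes (73.3%), against 29.9% of all IDR peaks, and CGATA stood in 10 (66.7%), against 29.2%. The peaks at synthetase genes were also richer in A and T. Their median GC content was 29.9%, against 36.8% for all IDR peaks, and the part of base composition in these shares was not tested. Promoters differed less, with a median of 35.3% for synthetase genes and 38.0% for all genes. The 2 sets of peaks also differed in position. Of the 15 peaks, 12 had some protein-coding start no more than 500 bp away, while 52.1% of all IDR peaks did. The shares of TATAAA and CGATA were not compared among peaks near starts alone, so the part of position was not tested either. The letters GAGAG stood in 2 of the 15 peaks (13.3%) against 25.3%, TATCGATA in 1 (6.67%) against 3.77%, and CACGTG, GGTCACAC and TGATGNAA in none, against 2.61%, 2.27% and 2.14%. A match is a description of the sequence and not evidence of a bound factor.

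**Figure D4:**
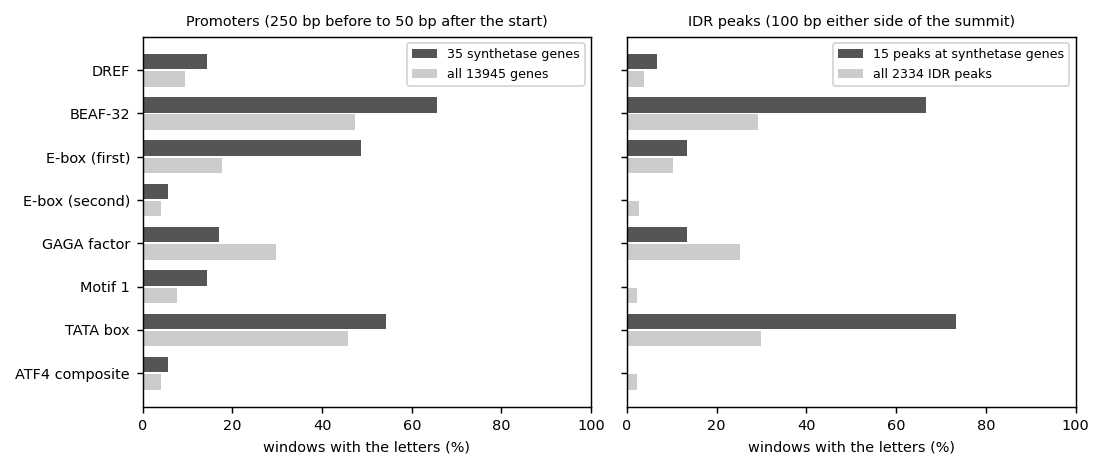
Share of windows that hold each motif's letters on either strand, in percent, for promoters of the 35 synthetase genes and of all 13945 genes (left) and for the 15 peaks at synthetase genes and all 2334 IDR peaks (right). The first E-box stood in 48.6% of synthetase promoters and 17.7% of all promoters. The letters TATAAA, labelled TATA box, stood in 73.3% of the peaks at synthetase genes and 29.9% of all IDR peaks.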

How the data were processed

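Peak lists on the dm6 build were used unchanged. A list of peaks and background regions per replicate was deposited by the authors, derived per the deposited notes from that replicate's alignments and a control file, and a pooled list and an IDR list were derived from both. Each region carries a signal value as deposited by the authors, with no stated scale. Which aligner, peak caller and IDR threshold were used is not given in the sources used here. The 4 lists on dm3 and the deposited q-values were not used. Both replicate lists have the same number of regions, set by the processing, so their length is no measure of binding.

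Genes and starts came from Ensembl release 115 and sequence from the Release 6 RefSeq genome, which is dm6. Summits (region start plus the deposited offset) were assigned to bodies plus 2 kb, to starts within 500 bp and to the nearest start, with ties credited to every tied gene. Each replicate's strongest 2334 candidates served as its own list. The assignment was tested on simulated data with planted summits. Python 3.11.15, numpy 2.4.6, pandas 2.3.3 and scipy 1.17.1 were used.

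There was 1 group and no contrast, and genes are not replicates, so no test was run: counts are given with 95% Wilson intervals beside the same count over all protein-coding genes. Nothing in the labels says whether replicates 2 and 3 came from separate collections beyond calling them biological replicates. The members, gene lists, groups and motifs were chosen with earlier results of these data known. Of the tRNA processing list, 1 gene is not reported here, and that list is counted without it. Every member is named, those with a peak in full, and neighbours are named where their start is near the summit. Alternatives were other windows around genes and starts, the nearest start, overlap of the whole region, the IDR peaks above their median signal, and each replicate alone.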

Additional observations from a re-analysis of the deposited data

How the results depend on the processing

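The counts of genes with a peak depended on the window. With gene bodies alone, 2 of 35 synthetase genes had a peak (2 of 20 cytoplasmic, 0 of 15 mitochondrial). The share of all 35 then lay slightly below the 7.6% of all genes, and that of the cytoplasmic forms slightly above it. With 500 bp added there were 8 of 35 in all, a share above the 16.0% of all genes, and 1 of 15 mitochondrial forms. By the nearest TSS only there were 4 of 35 in all (4 of 20 cytoplasmic, 0 of 15 mitochondrial). Here too the share of all 35 lay slightly below that of all genes, 13.3%, and that of the cytoplasmic forms above it. With only the IDR peaks above their median signal there were 7 in all and 5 cytoplasmic forms, against 12.6%, and promoter peaks at 3 synthetase genes, all 3 cytoplasmic, against 6.3%. A promoter of 1000 bp added 1 of 15 mitochondrial forms, against 13.6% of all genes. It was LeuRS-m, whose summits lay nearer to the start of Dhc64C. Of 42 alternatives, 13 moved a count by more than 1.5 times and 29 did not. Among those that did not were windows of 5 kb (16 genes, against 32.0% of all genes), overlap of whole regions (13 genes, against 22.9%) and each replicate alone. The tally follows counts of synthetase genes only, and some unmoved counts were mitochondrial promoter counts that stayed at 0. The share of all genes also changed with the window, from 7.6% to 32.0%. The tally therefore does not show whether shares held against all genes. Without replicate 2 there were 13 genes with a peak and without replicate 3 there were 11, with 6 promoter peaks each time.

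No paired analysis was possible because there was 1 group only. The depth is unknown, so a gene without a peak is one with none above the threshold, not one shown to be unbound. Genes in compact regions share summits, so a summit within 2 kb does not say which gene it belongs to.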
